A study of Caenorhabditis elegans with 4 samples.

Results

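The genes described here encode the cyclins and cyclin-dependent kinases that drive the cell cycle of the nematode Caenorhabditis elegans. Of 10 genes proposed (cyb-1, cyb-2.1, cyb-2.2, cyb-3, cya-1, cye-1, cyd-1, cdk-1, cdk-2 and cdk-4), 8 have a probe that GEO's platform annotation gives to that gene alone, out of 14943 genes with a value in the series. The pair cyb-2.1 and cyb-2.2 share 1 probe and have none of their own, so neither has a value here. Each of the other 8 genes is measured by 1 probe, and no value below can be checked against a second probe of the same gene. By the RefSeq annotation cye-1 and cdk-2 lie on chromosome I, cyd-1 on II, cya-1 and cdk-1 on III, cyb-1 on IV, cyb-3 on V and cdk-4 on X.

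Wild-type adults in 4 preparations (preps) were each compared with a common wild-type mixed reference on a two-colour microarray, which makes 4 arrays. The adult RNA is in channel 2 and the reference in channel 1 of every array, and no array has the channels swapped. The labels name no strain, age, sex or treatment, and do not say what the reference mixed or whether each prep was its own culture. The values are log2 ratios. They are read as likely adult over reference, because channel 2 holds the adult RNA, but the deposited table does not state the direction. Dye effects of single genes and true differences cannot be told apart in this design, and p-values measure the spread between these preps only.

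A cyclin-dependent kinase is inactive until a cyclin binds it, and cyclins are made and destroyed in turn as the cell cycle advances. In this worm cyclin D with CDK-4 acts in G1, cyclin E with CDK-2 at the entry to S phase, and B cyclins with CDK-1 in mitosis and the meiotic divisions. The somatic cells of the adult no longer divide, and the germ line is the tissue where cells go on dividing. Oocytes also store mRNA of cell cycle genes for the embryo.

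The genes of the mitotic kinase and its B cyclins had positive ratios. Of the G1 genes, cdk-4 had ratios from -0.35 to 0.02, and cyd-1 varied from -0.75 to 0.59 between arrays. Each mean was tested against 0 with limma, and p-values were adjusted by Benjamini-Hochberg over the 14935 genes tested. At an adjusted p under 0.05 limma called cyb-1, cyb-3, cye-1 and cdk-1 positive, 4 of 8, where 23.2% of all genes tested were called positive. None of the 8 was called negative, where 21.2% of all genes were. The genes were chosen with earlier results of these data known, so these counts are descriptions only. Values above 0 on every array measured were found for 3 of the 8, against 30.7% of all genes, and values below 0 throughout for none, against 27.2%. The 4 genes not called were cya-1, cyd-1, cdk-2 and cdk-4. The count depended on the setting: with each array centred on its median 2 of 8 were called positive, cyb-1 and cyb-3, where 20.9% of all genes were. The same 2 were left without prep 2 (16.7% of all genes) and without prep 4 (17.6%), but leaving out prep 4 removed no value of cyb-1. They were also left with the date in the array titles, which preps 3 and 4 share, as a block (20.9%). The median of the 8 means was 0.48 on the log2 scale, against 0.06 over all genes. In RNA from whole worms, more cells of a dividing tissue and more RNA per cell cannot be told apart.

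**Figure D1:**
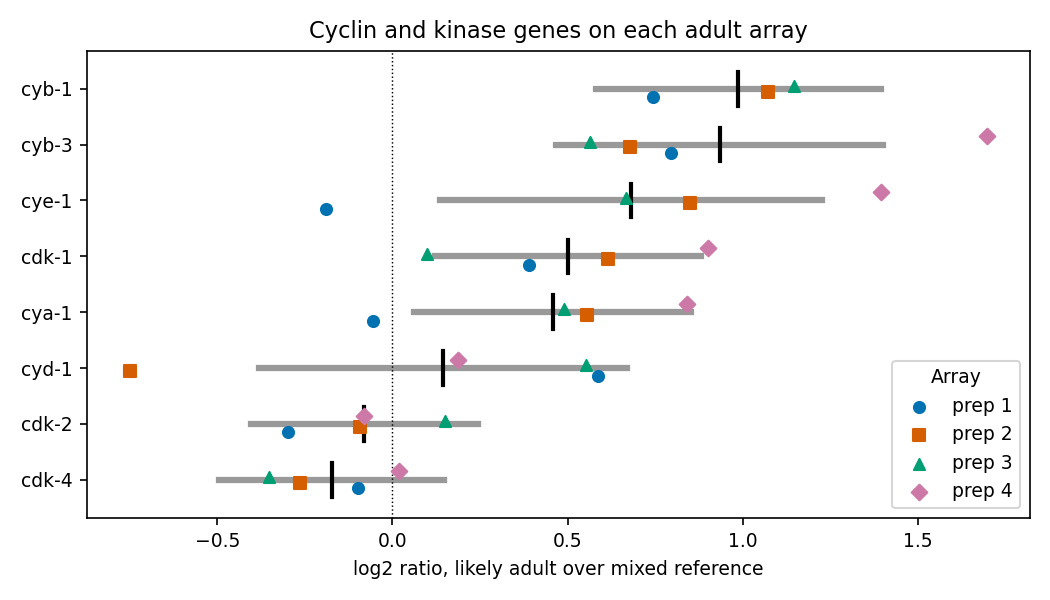
Log2 ratio (x axis, likely adult over mixed reference) of each of the 8 genes (y axis, ordered by mean) on the 4 adult arrays, with the mean as a vertical tick and limma's 95% confidence interval as a grey bar. All points of cyb-1, cyb-3 and cdk-1 lie above 0, and cyb-1 has no value on prep 4.

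The B cyclins bind CDK-1 and are required for mitosis. The log2 ratio of cyb-1 was 0.74, 1.07 and 1.14 on preps 1 to 3, and the spot has no value on prep 4. Its mean over these 3 arrays was 0.99 ± 0.21 (SD, n = 3), or 1.98-fold, with a 95% interval from 1.50-fold to 2.63-fold (limma adjusted p = 0.0036). The gene stood at the 93.4 percentile of the means of all genes.

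For cyb-3, the cyclin B3 gene, whose product acts in chromosome segregation, the log2 ratio was 0.80, 0.68, 0.56 and 1.70 on preps 1 to 4. All 4 values were positive, and the value on prep 4 stood well above the others. The mean was 0.93 ± 0.52 (SD, n = 4), or 1.91-fold, with a 95% interval from 1.38-fold to 2.64-fold (limma adjusted p = 0.0070). Without prep 4 the mean was 0.68 and the gene was still called (limma adjusted p = 0.017).

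The kinase gene cdk-1, whose product is the mitotic kinase of this worm, had 0.39, 0.62, 0.10 and 0.90 on preps 1 to 4. Its mean was 0.50 ± 0.34 (SD, n = 4), or 1.42-fold, with a 95% interval from 1.09-fold to 1.84-fold (limma adjusted p = 0.039). The sign was the same on all arrays, but the call was close to the threshold. It was lost without prep 1 (0.54, adjusted p = 0.059), without prep 2 (0.46, adjusted p = 0.12) or without prep 4 (0.37, adjusted p = 0.14). It was also lost when each array was centred on its median (0.45, adjusted p = 0.054).

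The cyclin A gene cya-1, whose vertebrate counterpart acts in S phase and mitosis, had -0.06, 0.56, 0.49 and 0.84 on preps 1 to 4. Prep 1 lay near 0 and apart from the other arrays. The mean of 0.46 ± 0.37 (SD, n = 4) was not called (limma adjusted p = 0.060). Without prep 1 it was called at 0.63 (adjusted p = 0.019). A second cyclin A gene, cya-2, is not among the proposed genes and was looked up after the values were seen. Its ratio was 1.27, 0.68 and 0.98 on preps 2 to 4, with no value on prep 1, and its mean of 0.98 ± 0.29 (SD, n = 3) was called (limma adjusted p = 0.0048).

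Of the pair that acts at the entry to S phase, the cyclin gene was called and the kinase gene was not. The cyclin E gene cye-1, known in the germ line for keeping stem cells in proliferation, had -0.19, 0.85, 0.67 and 1.39 on preps 1 to 4. Preps 2 to 4 were positive and prep 1 was negative, and the SD of 0.66 exceeded that of 92.5% of genes with values on all arrays. The mean of 0.68 was called at a value close to the threshold (1.60-fold, 95% interval from 1.099-fold to 2.34-fold, n = 4, limma adjusted p = 0.047). The call did not hold once prep 2 (mean 0.62, adjusted p = 0.12), prep 3 (mean 0.69, adjusted p = 0.12) or prep 4 (mean 0.44, adjusted p = 0.18) was left out, nor with each array centred on its median (0.63, adjusted p = 0.064).

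Its partner kinase gene cdk-2 had -0.30, -0.09, 0.15 and -0.08 on preps 1 to 4. These values lay on both sides of 0, and the mean was -0.08 ± 0.18 (SD, n = 4; limma adjusted p = 0.67). The 95% interval ran from 0.756-fold to 1.18-fold.

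The G1 genes were not called. The cyclin D gene cyd-1, which drives G1 progression in larval cell lineages, had 0.59, -0.75, 0.55 and 0.19 on preps 1 to 4. Prep 2 stood against the other arrays, and the mean of 0.14 ± 0.62 (SD, n = 4) had a 95% interval from 0.769-fold to 1.59-fold (limma adjusted p = 0.63). Without prep 1 the mean was -0.0031 (adjusted p = 0.99), and without prep 2 it was 0.44 (adjusted p = 0.098).

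The kinase gene cdk-4 is the only one of the 8 on the X chromosome. It had -0.10, -0.26, -0.35 and 0.02 on preps 1 to 4. The values on preps 1 to 3 were below 0 and that on prep 4 was just above it, and the mean was -0.17 ± 0.17 (SD, n = 4), with a 95% interval from 0.71-fold to 1.11-fold (limma adjusted p = 0.34). The SDs of cdk-4 and cdk-2 were the lowest of the 8 (that of cyb-1 being over 3 arrays), at the 14.6 and 18.1 percentiles of the 14639 genes with values on all arrays, so their 4 arrays differed little. The table holds no signal intensities, so how far these spots stood above background is unknown. A dim spot can give a ratio nearer to 0, depending on the background correction, which is not given.

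**Figure D2:**
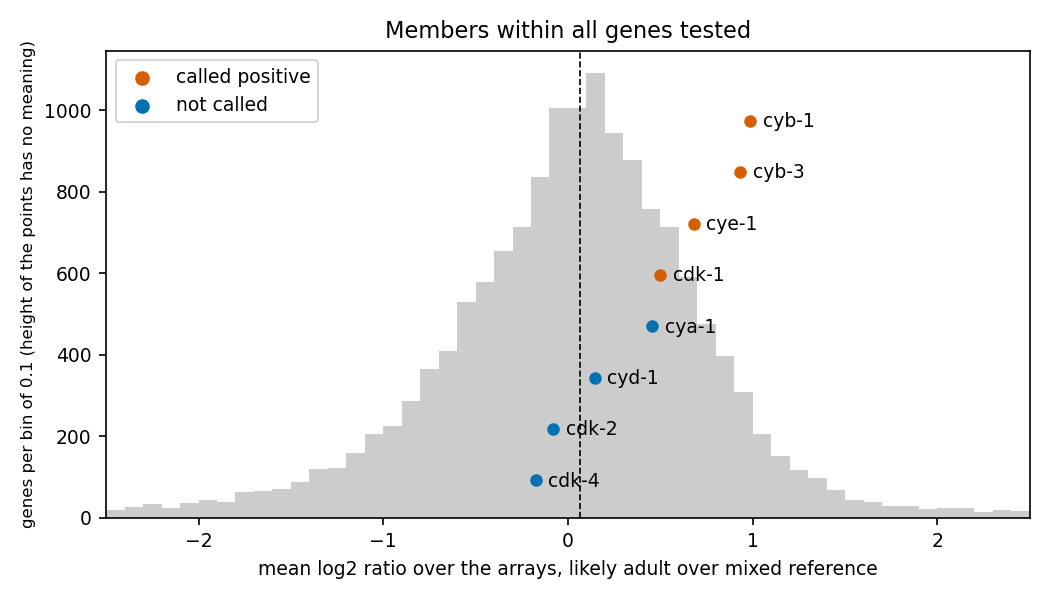
Number of genes (y axis) per bin of 0.1 in the mean log2 ratio (x axis, shown from -2.5 to 2.5) over all 14935 genes tested, with the 8 genes placed at their means and the median of all genes, 0.06, as a dashed line. The points' height has no meaning; cyb-1 and cyb-3 lie at the 93.4 and 92.3 percentiles, and cdk-2 and cdk-4 at the 40.2 and 34.8 percentiles.

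In order of their mean ratios the genes ran cyb-1, cyb-3, cye-1, cdk-1, cya-1, cyd-1, cdk-2 and cdk-4. The mean of cyb-1 is over 3 arrays and the others are over 4. No neighbours in this order kept it on every array that measured both, so no step from one gene to the next exceeded the spread between arrays. Differences between 11 pairs were taken on each array, with an exact sign permutation test over the arrays, two-sided, adjusted over the 11 pairs. With 4 arrays there are 16 sign patterns and the smallest p comes from 2 of them, so this test cannot reach 0.05.

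The difference between the mitotic and the G1 kinase genes varied least over the arrays. The ratio of cdk-1 lay above that of cdk-4 by 0.49, 0.88, 0.45 and 0.88 on preps 1 to 4. The mean difference was 0.67 ± 0.24 (SD, n = 4; exact test at its smallest p, adjusted p = 0.34), with the same sign on all 4 arrays.

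The difference between cyb-3 and cyd-1 had the same sign on every array but not the same size, at 0.21, 1.43, 0.01 and 1.51 on preps 1 to 4. The ratio of cye-1 exceeded that of its partner cdk-2 by 0.11, 0.94, 0.52 and 1.47 on preps 1 to 4. Likewise cyb-3 exceeded its partner cdk-1 on all 4 arrays, by 0.06 to 0.79. These 3 pairs were also at the smallest p of the exact test (adjusted p = 0.34, n = 4). The difference between cyb-1 and cdk-1 was positive on the 3 arrays with both values, from 0.35 to 1.05 (exact p = 0.25, adjusted p = 0.46, the smallest p that 3 arrays allow being 0.25).

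The remaining 6 pairs changed sign between arrays. Among them cyd-1 minus its partner cdk-4 ran from -0.49 on prep 2 to 0.90 on prep 3, and cye-1 minus cyd-1 from -0.78 on prep 1 to 1.60 on prep 2. The difference between the kinase genes cdk-2 and cdk-4 had a mean of 0.09 ± 0.31 (SD, n = 4; exact p = 0.75, adjusted p = 0.75).

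**Figure D3:**
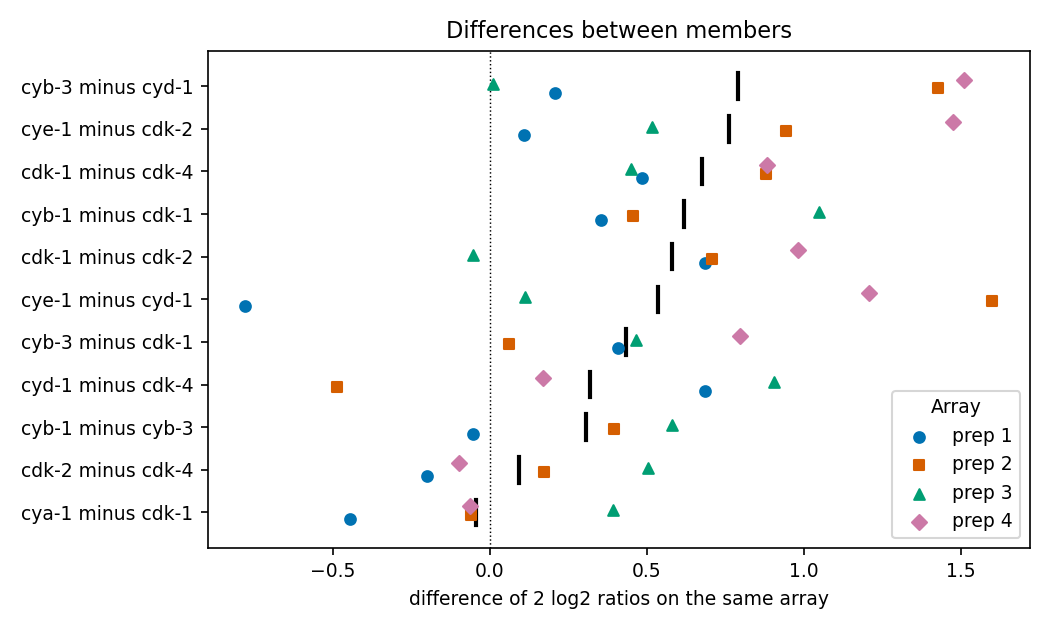
Difference of the log2 ratios of both genes of a pair on the same array (x axis) for 11 pairs (y axis, ordered by mean), with 1 point per array and the mean as a vertical tick. The points of cdk-1 minus cdk-4 lie between 0.45 and 0.88, while those of cye-1 minus cyd-1 run from -0.78 to 1.60.

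The preps differed from one another in these genes. Over the 7 genes with values on all arrays, the median ratio was -0.06, 0.56, 0.49 and 0.84 on preps 1 to 4. Prep 4 had the highest ratio of cyb-3, cya-1, cye-1, cdk-1 and cdk-4, and prep 1 the lowest of cya-1, cye-1 and cdk-2. Preps 3 and 4, which share the title date, held the lowest and the highest ratio, in that order, of cyb-3, cdk-1 and cdk-4. The medians of all genes lay between 0.00 and 0.09 on the same arrays.

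Marker lists of the germ line moved between the preps as well. These lists too were chosen with earlier results of these data known. Their counts stand beside the 23.2% of all genes called positive. Of the mitotic and early meiotic germ line genes 16 of 17 were called positive, and their median was 0.76, 1.13, 0.97 and 1.60 on preps 1 to 4. Of the oocyte genes 16 of 18 were called positive, and their median was 0.54, 0.92, 0.43 and 1.43 on preps 1 to 4. Without prep 2 or without prep 4, 10 oocyte genes were called. The share of all genes called positive also fell, to 16.7% without prep 2 and 17.6% without prep 4. The spermatogenesis genes, 14 of 18 of them positive, went otherwise, with medians from 1.304 on prep 4 to 1.73 on prep 3. The part of germ line content in the ratios of the cyclin and kinase genes was not tested.

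The ratios of cdk-1, cya-1, cye-1, cyd-1, cdk-2 and cdk-4 lay below the median of the germ line list on all 4 arrays. The B cyclin genes stood nearer to it, cyb-3 below it on 2 of 4 arrays and cyb-1 on 2 of 3. Lists for moulting and for tissues outside the germ line had opposite or mixed values. Called negative were 8 of 13 moulting genes and 13 of 15 neuronal genes, against 21.2% of all genes, and none was called positive. None of the 3 vitellogenin genes measured, the yolk genes of the adult intestine, was called, and their median was highest on prep 4, at 1.49. With prep 4 left out vit-2 was called negative (-0.85, limma adjusted p = 0.013), and with prep 1 left out vit-6 was called positive (1.12, adjusted p = 0.045). The mean of vit-6 over all arrays was 0.88, and it dropped to 0.33 with prep 4 left out, where it was not called.

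**Figure D4:**
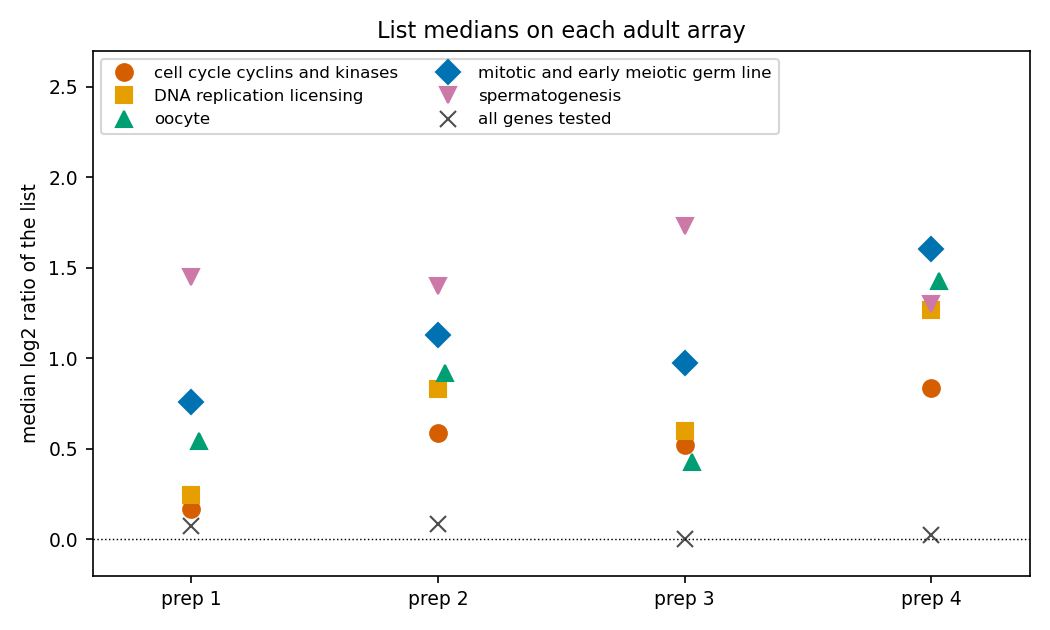
Median log2 ratio (y axis) of the cyclin and kinase genes, 4 other gene lists and all genes tested on each adult array (x axis). Prep 4 has the highest median of the cyclin and kinase, licensing, oocyte and germ line lists; the cyclin and kinase median there leaves out cyb-1, which has no value on prep 4.

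Other regulators of these kinases were compared as lists, by counts of called genes beside the 23.2% positive and 21.2% negative among all genes. The lists were chosen with earlier results of these data known, so the counts are descriptions only. Without prep 2 the positive share of all genes was 16.7%, and without prep 4 it was 17.6%. Of the genes that restrain or assist the kinases directly, 2 of 5 were called positive and 1 negative, with a median of 0.48. The negative one was cki-1, a CDK inhibitor of the p27 kind that holds larval cells in arrest, at -1.34, -1.27, -0.88 and -1.41 on preps 1 to 4. Its mean of -1.23 ± 0.24 (SD, n = 4; limma adjusted p = 4.7e-04) was of the opposite sign to that of its paralog cki-2, at 0.53 ± 0.30 (adjusted p = 0.026). The difference of cki-1 and cki-2 was not tested.

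The inhibitory kinase gene wee-1.3, whose product keeps CDK-1 inactive in oocytes, had -0.10, 1.12, 0.84 and 1.58 on preps 1 to 4 (mean 0.86 ± 0.71, n = 4, limma adjusted p = 0.024). As with cye-1, prep 1 lay below 0 and prep 4 was highest. Genes not called in this list were cks-1, a small CDK-binding subunit (0.48, adjusted p = 0.060), and wee-1.1 (0.35, adjusted p = 0.12). The mean of cks-1 was 0.30 without prep 4 and that of wee-1.1 was 0.20 without prep 1. Without prep 2 or without prep 4 no gene of the list was called positive, and without prep 3 wee-1.3 was not (0.87, adjusted p = 0.075). Among the phosphatases that activate or oppose the kinases 2 of 4 were called positive, with a median of 0.31. These were cdc-25.1, required for germ cell proliferation, at 1.09 ± 0.56 (SD, n = 4; limma adjusted p = 0.0042), and cdc-25.4 at 0.64 ± 0.19 (adjusted p = 0.0076). Not called were cdc-25.2 (-0.18, adjusted p = 0.39) and cdc-14 (-0.02, adjusted p = 0.95).

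The anaphase-promoting complex marks B cyclins for destruction, and 5 of its 10 measured genes were called positive and 1 negative, with a median of 0.60. Its activator gene fzy-1, the worm's Cdc20, had 0.68, 0.78, 0.72 and 1.22 on preps 1 to 4 (mean 0.85 ± 0.25, n = 4, limma adjusted p = 0.0027). The subunit genes apc-10 and apc-2 had means of 0.86 ± 0.28 and 0.85 ± 0.10 (adjusted p = 0.0029 and 0.0016). The negative gene was apc-11, named for the RING subunit of yeast and vertebrates, at -0.67 (adjusted p = 0.0052), a gene outside the naming rule and picked out after its value was seen. Of the separase, securin and spindle checkpoint genes 5 of 7 were called positive, with a median of 0.66, led by the checkpoint kinase gene bub-1 at 1.21 ± 0.15 (SD, n = 4; limma adjusted p = 3.5e-04) and mdf-1, the worm's Mad1, at 0.88 ± 0.23 (adjusted p = 0.0021). Securin, ify-1, had -0.16, 1.24 and 1.37 on preps 1 to 3, no value on prep 4, and was not called (0.81 ± 0.85, n = 3, adjusted p = 0.064), but was called without prep 1 (1.301, adjusted p = 0.0025). Without prep 2 or without prep 4, 2 genes of that list were called positive.

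The Rb, E2F and DP list holds lin-35, the worm's Rb, whose product is a target of cyclin D and CDK-4, and the E2F and DP genes. It had a median of 0.51 and 3 of 4 genes called positive: dpl-1 at 0.91 ± 0.62 (SD, n = 4; limma adjusted p = 0.013), lin-35 at 0.55 ± 0.22 (adjusted p = 0.016) and efl-3 at 0.46 ± 0.17 (adjusted p = 0.028). The fourth, efl-1, had 0.47 ± 0.40 (adjusted p = 0.061), and 0.30 without prep 4. Without prep 2 only 1 gene of this list was called. The call of lin-35 was also lost without prep 4 (0.46, adjusted p = 0.063), and efl-3 was not called once prep 1 (mean 0.39, adjusted p = 0.0997) or prep 3 (mean 0.45, adjusted p = 0.077) was left out. The mean ratios of these 4 genes, from 0.46 to 0.91, lay above those of cyd-1 and cdk-4, a difference that was not tested. For cyd-1 this order did not hold on every array. It lay above all 4 on prep 3 (0.55), above all but efl-3 on prep 1 (0.59), and below all 4 on preps 2 and 4.

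Of the Polo, Aurora and checkpoint kinase genes, which act in mitosis or in the response to DNA damage, 3 of 5 were called positive, with a median of 0.77. The Aurora kinase genes air-2 and air-1 had means of 1.06 ± 0.33 and 0.77 ± 0.33 (SD, n = 4; limma adjusted p = 0.0014 and 0.0064), and plk-3 of the Polo family had 1.44 ± 0.82 (adjusted p = 0.0041). The main Polo kinase gene plk-1 had 0.81, 1.1003, 0.68 and -2.61 on preps 1 to 4. One array decided its mean of -0.01 (adjusted p = 0.99), and without prep 4 it was called at 0.86 (adjusted p = 0.0095). The gene atl-1, a DNA damage checkpoint kinase, was not called (0.42, adjusted p = 0.13), but was without prep 1 (0.68, adjusted p = 0.014).

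Of the cullin ubiquitin ligase genes 4 of 11 were called positive and 1 negative, with a median of 0.37. The paralogs skr-1 and skr-2, Skp1-related adaptors of these ligases that may share signal, had opposite signs, at -0.74 ± 0.24 and 0.73 ± 0.27 (SD, n = 4; limma adjusted p = 0.0049 and 0.0058). The embryonic adaptor gene zif-1 had 1.21 ± 0.56 (adjusted p = 0.0027). Without prep 4, 2 genes of the list were called positive. Of the DNA replication licensing genes 12 of 17 were called positive and none negative, and the median of their means was 0.78. The helicase subunit gene mcm-7 had 1.03 ± 0.73, evl-18 had 0.94 ± 0.26 (limma adjusted p = 0.0018) and the loading factor gene cdt-1 had 0.92 ± 0.37 (SD, n = 4; limma adjusted p = 0.012 for mcm-7 and 0.0036 for cdt-1). Without prep 4, 7 of the licensing genes were called. The ratios of cdk-2, cdk-4 and cya-1 lay below the median of the licensing genes on all 4 arrays.

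A list of other cyclins, cyclin-dependent kinases and their partners, many of them with roles in transcription, had 3 of 12 genes called positive and 1 negative, with a median of 0.38. The negative one was cdka-1, the activator of the neuronal kinase CDK-5, at -1.22 ± 0.28 (SD, n = 4; limma adjusted p = 5.9e-04). The kinase gene cdk-11.1 had 0.62 ± 0.26 and the cyclin K gene ccnk-1 had 0.55 ± 0.29 (adjusted p = 0.012 and 0.022). Also called positive was mnat-1 (0.48, limma adjusted p = 0.030), a gene outside the naming rule that is neither a cyclin nor a kinase gene. Without prep 2 or without prep 4 none of the 12 was called positive, and without prep 1 ccnk-1 was not (0.43, adjusted p = 0.082). Their positive share, 25% of 12 genes, was near that of all genes.

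**Figure D5:**
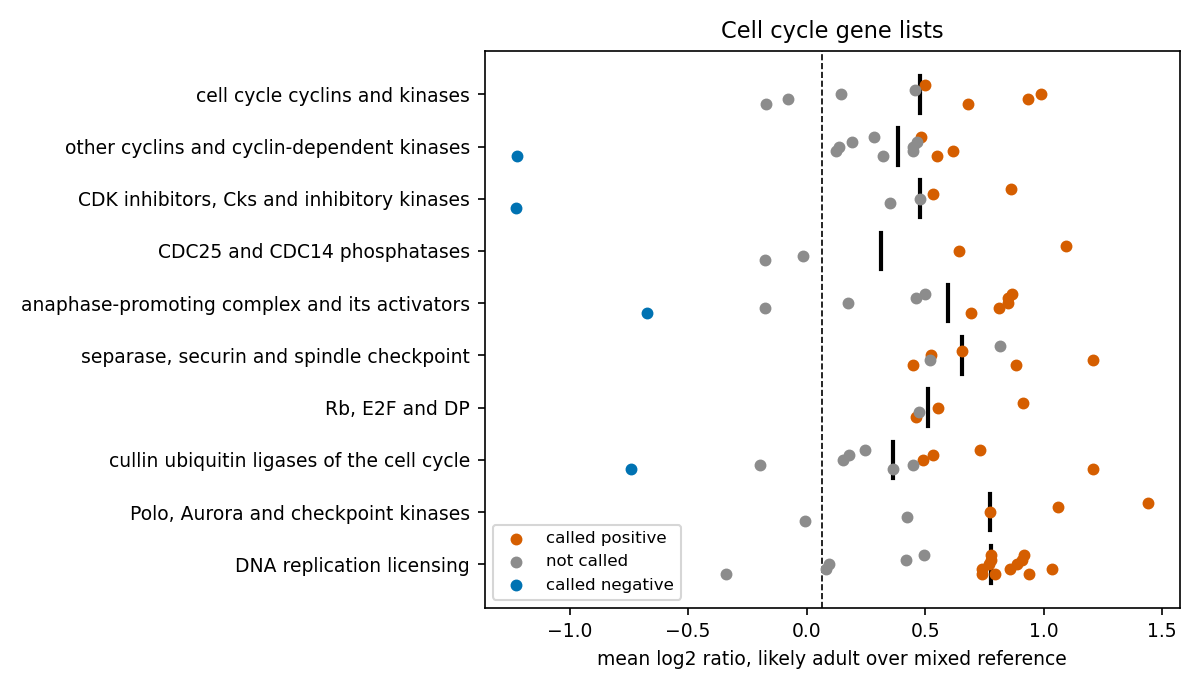
Mean log2 ratio (x axis, likely adult over mixed reference) of each tested gene in the cyclin and kinase set and 9 lists of other cell cycle regulators (y axis), coloured by limma's call, with the list median as a vertical tick and the median of all genes, 0.06, as a dashed line. The negative calls are cdka-1, cki-1, apc-11 and skr-1.

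The profiles nearest to 2 of the kinase genes were taken by Euclidean distance over the 4 arrays, among 14638 other genes with values on all of them. Nearest to cdk-1 were M110.3, F37A4.1, dxbp-1, tsp-12 and swsn-9, at distances of 0.101 to 0.124 on the log2 scale. All 5 had their highest ratio on prep 4 and their lowest on prep 3, as cdk-1 did. Choosing genes by distance over these same values makes such a shared order likely. Nearest to cdk-4 were clec-99, nuaf-1, nhr-177, T05C12.8 and cyp-25A6, at distances of 0.0695 to 0.103, with means between -0.19 and -0.14 and none called by limma. With so many genes compared, such closeness over 4 values describes the profiles only.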

How the data were processed

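The authors deposited 1 log2 ratio per probe and array for 4 two-colour arrays. The unit was read from the values, since 2 raised to the deposited log2 value gave a 3-decimal ratio (within 0.00001) for 99.9% or more of the spots. The sources used here do not give scanner, dyes, background correction or normalization. Between 21243 and 21501 of 21632 probes had a value, with array medians from -0.0043 to 0.0496, and the arrays correlated with Pearson's r from 0.659 to 0.755.

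GEO's platform annotation named 1 gene for 16450 probes, more than 1 for 247 and no gene for 4935. Symbols were updated through RefSeq WBcel235 by gene ID (16360 probes) or accession (8). Probes of a gene were averaged, giving 14943 genes, of which 14935 had at least 3 arrays. limma 3.58.1 in R 4.3.3 (intercept, lmFit, eBayes) tested each against 0, two-sided, with Benjamini-Hochberg adjustment and a threshold of 0.05. On simulated data (200 of 14935 genes changed) it recovered 2%, 58%, 86% and 94% of the genes changed by 0.5, 1, 2 and 3 (log2), with 5 false calls among 125 over all sizes. The 200 changed genes were split evenly over these sizes. In the data far more genes were called (3468 positive and 3171 negative), so the adjusted threshold was less strict there. The simulated rates therefore do not describe the fit of the data. The number of arrays limits the precision.

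The genes, lists and pairs were chosen with earlier results of these data known. Named genes are the 8 with a probe; per list the 3 largest means in size (all of a list of 6 or fewer); and 5 neighbours each of cdk-1 and cdk-4. Tissue marker lists are given mainly as counts and medians. A pair of the 12 planned had no own probes, leaving 11. Alternatives covered centring, scaling, the minimum of arrays, a robust prior, array weights, title dates as a block, single probes, a size rule and leaving out each array.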

Additional observations from a re-analysis of the deposited data

Results flagged for a closer look

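Single arrays far from the rest were looked for in 93 sets of 4 values, where chance alone gives 4.65 at 1 in 20, and 1 was found. It was the Polo kinase gene plk-1, whose log2 ratio on prep 4, -2.61, stood far below those on preps 1 to 3, which ran from 0.68 to 1.1003. None of the 7 cyclin and kinase genes measured on all arrays was found in this way, and neither was any of the 9 pair differences with 4 values.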

How the results depend on the processing

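Each ratio already pairs adult and reference RNA on the same array, and no other pairing was possible because all arrays belong to 1 group. The calls of cyb-1 and cyb-3 held under every alternative run except the minimum size of log2 1, which neither mean reached. The gene cyb-1 could not be fitted where all 4 arrays were required. Some of these runs could hardly change the calls. Fitting single probes or a lower minimum of arrays used the same values of both genes, and leaving out prep 4 removed no value of cyb-1. Centring the arrays left 2 positive calls among the 8 genes, with cye-1 at 0.63 (adjusted p = 0.064) and cdk-1 at 0.45 (adjusted p = 0.054), and 20.9% of all genes positive (3114, against 3405 negative; 3468 and 3171 as reported). Centring and scaling also left 2, with cye-1 at 0.64 and cdk-1 at 0.43. The planned estimate of a block correlation for the date shared by 2 titles could not be made with 3 dates on 4 arrays. A moment estimate (0.271), added after seeing the data, left 2 calls, with cye-1 at 0.64 and cdk-1 at 0.50. With array weights cya-1 was called at 0.47 (adjusted p = 0.049). A size of at least log2 1 left 0 of the 8, and 929 positive and 1203 negative genes of all, by construction.

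Leaving out 1 array gave 2 to 4 positive calls among the 8 genes (2501 to 3062 of all genes), with means of 0.44 to 0.97 for cye-1, 0.37 to 0.64 for cdk-1, 0.33 to 0.63 for cya-1 and -0.0031 to 0.44 for cyd-1. Differences ran from -0.19 to 0.090 for cya-1 minus cdk-1 and from -0.042 to 0.19 for cdk-2 minus cdk-4. Positive calls ranged from 0 to 3 for the other cyclins and kinases, 0 to 2 for the inhibitors, 2 to 6 for the checkpoint list, 1 to 2 for Rb and E2F, 2 to 4 for the cullins, 7 to 13 for licensing, 10 to 16 for oocyte genes and 0 to 1 for vitellogenins, which also had 0 to 1 negative. Without 1 array, plk-1 ran from -0.37 to 0.86, cdc-14 from -0.20 to 0.15, vit-2 from -0.85 to 0.043, vit-5 from -0.16 to 0.22 and vit-6 from 0.33 to 1.18. With array weights plk-1 was at 0.18 and vit-5 at -0.051; with the block they were at 0.11 and -0.023, and vit-5 was at -0.021 when centred. The cause of these changes was not tested.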
